A study of Mus musculus with 8 samples.

Results

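Sfrp5, Mest, Npr3 and the secreted antagonists of Wnt signalling were described here in perigonadal white adipose tissue (pgWAT), the fat pad that adjoins the epididymis. The 10 genes (Sfrp5, Sfrp1, Sfrp2, Sfrp4, Frzb, Dkk2, Dkk3, Wif1, Mest and Npr3) were taken by gene symbol, and 14 of the 25697 probes on the array carry one of these symbols. Of the 14 probes, 10 probes of 7 genes stood above background on at least 3 arrays and were tested, out of 13877 tested probes (9652 genes). Each of 8 Illumina MouseRef-8 v2.0 arrays read the total RNA of pgWAT from 1 male B6 mouse, 15 weeks old by the labels and fed a high-fat diet for 3 days. The 3 arrays labelled FKO come from mice that carry Adiponectin-Cre (on a C57BL/6J strain by the methods), which is active in adipocytes, and a floxed Ogt allele on their single X chromosome. The 5 arrays labelled Con come from littermates with the same floxed allele and no Cre. Ogt encodes the transferase that attaches O-GlcNAc to proteins, and cells of the fat pad other than adipocytes keep the gene in FKO mice. The labels were used throughout. The legends of the study give the same group sizes as the labels, and its methods give them the other way round, as 5 FKO and 3 control mice.

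Wnt proteins are secreted signals that bind Frizzled receptors and their LRP5 or LRP6 co-receptors, and so keep beta-catenin from being degraded. In fat, Wnt signalling through beta-catenin holds back the formation of adipocytes. The antagonists act outside the cell at separate steps. Secreted frizzled-related proteins (Sfrp1, Sfrp2, Sfrp4, Sfrp5 and Frzb, also called Sfrp3) and Wif1 bind Wnt proteins, whereas Dickkopf proteins such as Dkk2 bind the LRP co-receptors. Dkk3 belongs to the Dickkopf family by sequence and does not act at LRP5 and LRP6 as its relatives do. Mest (also called Peg1) is an imprinted gene, read from the paternal allele, whose product is an enzyme-like protein of the endoplasmic reticulum. In white fat of B6 mice, Mest and Sfrp5 are known to go with the expansion of fat mass and to vary widely between genetically alike animals on a high-fat diet. Npr3 encodes the receptor that clears natriuretic peptides, hormones that stimulate lipolysis in fat.

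The bases upstream of Sfrp5 and of Mest are shown because these are the members whose intensity varied most between the arrays. Each window holds the 250 bases before an annotated start, 5′ to 3′ on the gene's strand, from RefSeq for GRCm38.p6, with capitals marking the GC box (GGGCGG).
Sfrp5, chr19:42202253-42202502, minus strand: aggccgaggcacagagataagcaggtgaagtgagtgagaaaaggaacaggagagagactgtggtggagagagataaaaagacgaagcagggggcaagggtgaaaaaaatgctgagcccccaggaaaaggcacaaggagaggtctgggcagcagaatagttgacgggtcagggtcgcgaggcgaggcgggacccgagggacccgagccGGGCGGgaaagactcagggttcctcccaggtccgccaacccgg
Mest, upstream start, chr6:30733256-30733505, plus strand: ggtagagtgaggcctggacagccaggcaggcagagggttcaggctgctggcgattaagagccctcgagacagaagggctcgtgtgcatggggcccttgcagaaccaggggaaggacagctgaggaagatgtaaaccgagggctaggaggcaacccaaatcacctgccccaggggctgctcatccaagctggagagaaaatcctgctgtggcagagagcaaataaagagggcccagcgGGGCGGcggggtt
Mest, downstream start, chr6:30737800-30738049, plus strand: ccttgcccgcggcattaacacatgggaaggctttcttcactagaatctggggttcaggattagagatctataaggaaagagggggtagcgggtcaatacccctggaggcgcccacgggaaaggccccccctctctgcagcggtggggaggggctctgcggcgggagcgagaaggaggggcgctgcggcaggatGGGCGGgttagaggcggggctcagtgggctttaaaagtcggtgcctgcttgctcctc
The Sfrp5 window was 59.6% G and C with 13 CpG sites, and the upstream and downstream Mest windows were 60.8% and 62.4% with 7 and 14 CpG sites, where the median over 32851 such windows was 52.4% and 6 sites. Which Mest start the probes read was not settled. A GC box lay 43 bases before the start of Sfrp5 and 13 and 57 bases before the Mest starts, and 32.7% of all windows held one on either strand. The TCF/LEF motif ATCAAAG, searched on both strands, was in none of these windows nor in those of the 7 members that could be matched (9 windows), and in 3.21% of all windows. The letters TATAAA (12.4% of all windows), CCAAT (33.8%) and AGGTCA (14.0%) were in none of the 3 windows printed.

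Ogt itself did not bear out the array labels, and this bears on every difference between FKO and Con below. With its brightest probe, ILMN_2611676, Ogt was at 296, 177 and 260 on the arrays labelled FKO 1 to FKO 3 and at 188, 264, 199, 232 and 267 on those labelled Con 1 to Con 5 (log2 fold change, FKO over Con, 0.08, with a standard error, SE, of 0.23). FKO 2, Con 1 and Con 3 were the 3 lowest arrays with each of the 3 Ogt probes, and the position of the probes relative to the deleted exons was not settled. These 3 arrays stood apart from the other 5 in many genes: they were the 3 highest for 14.2% of all tested probes and the 3 lowest for 11.1%. RNA of the epididymis was a further difference. The summed intensity of 10 tested epididymal genes was 9999, 1038 and 18012 on FKO 1 to FKO 3, against 1086, 3348, 1206, 1265 and 1106 on Con 1 to Con 5, so that FKO 1, FKO 3 and, less so, Con 2 were high. Adipocyte RNA was plain on all arrays: all 10 adipocyte markers on the array were tested, and Adipoq (adiponectin) lay between 7496 and 10066 on the FKO arrays and between 9337 and 10666 on the Con arrays. No probe was called between FKO and Con by limma at an adjusted p under 0.05 (0.0% of 13877 in either direction, with 593 or 4.27% at an unadjusted p under 0.05). The rule of the methods, p under 0.01 with a fold above 1.5, was applied to log2 values of the tested probes only. It called 1 of the 13877 (0.00721%), of no member. The paper reports far more genes by this rule, both upregulated and downregulated, and that result was not reproduced here. The cause of this gap was not tested.

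None of the 10 member probes was called, against 0.0% of all tested probes (limma, adjusted p = 1 for each), and for all 10 the FKO and Con arrays overlapped in intensity, where 2.62% of all tested probes did not overlap. What marked Sfrp5 and Mest was the spread between arrays within both labelled groups. Both were highest on FKO 2, Con 1 and Con 3, the arrays where Ogt was lowest. Whether this spread goes with Ogt, with the labels or with single mice was not tested. The intensities are linear values as deposited, and a probe's level says nothing of another probe's level. Fold changes come from background-corrected log2 values.

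**Figure D1:**
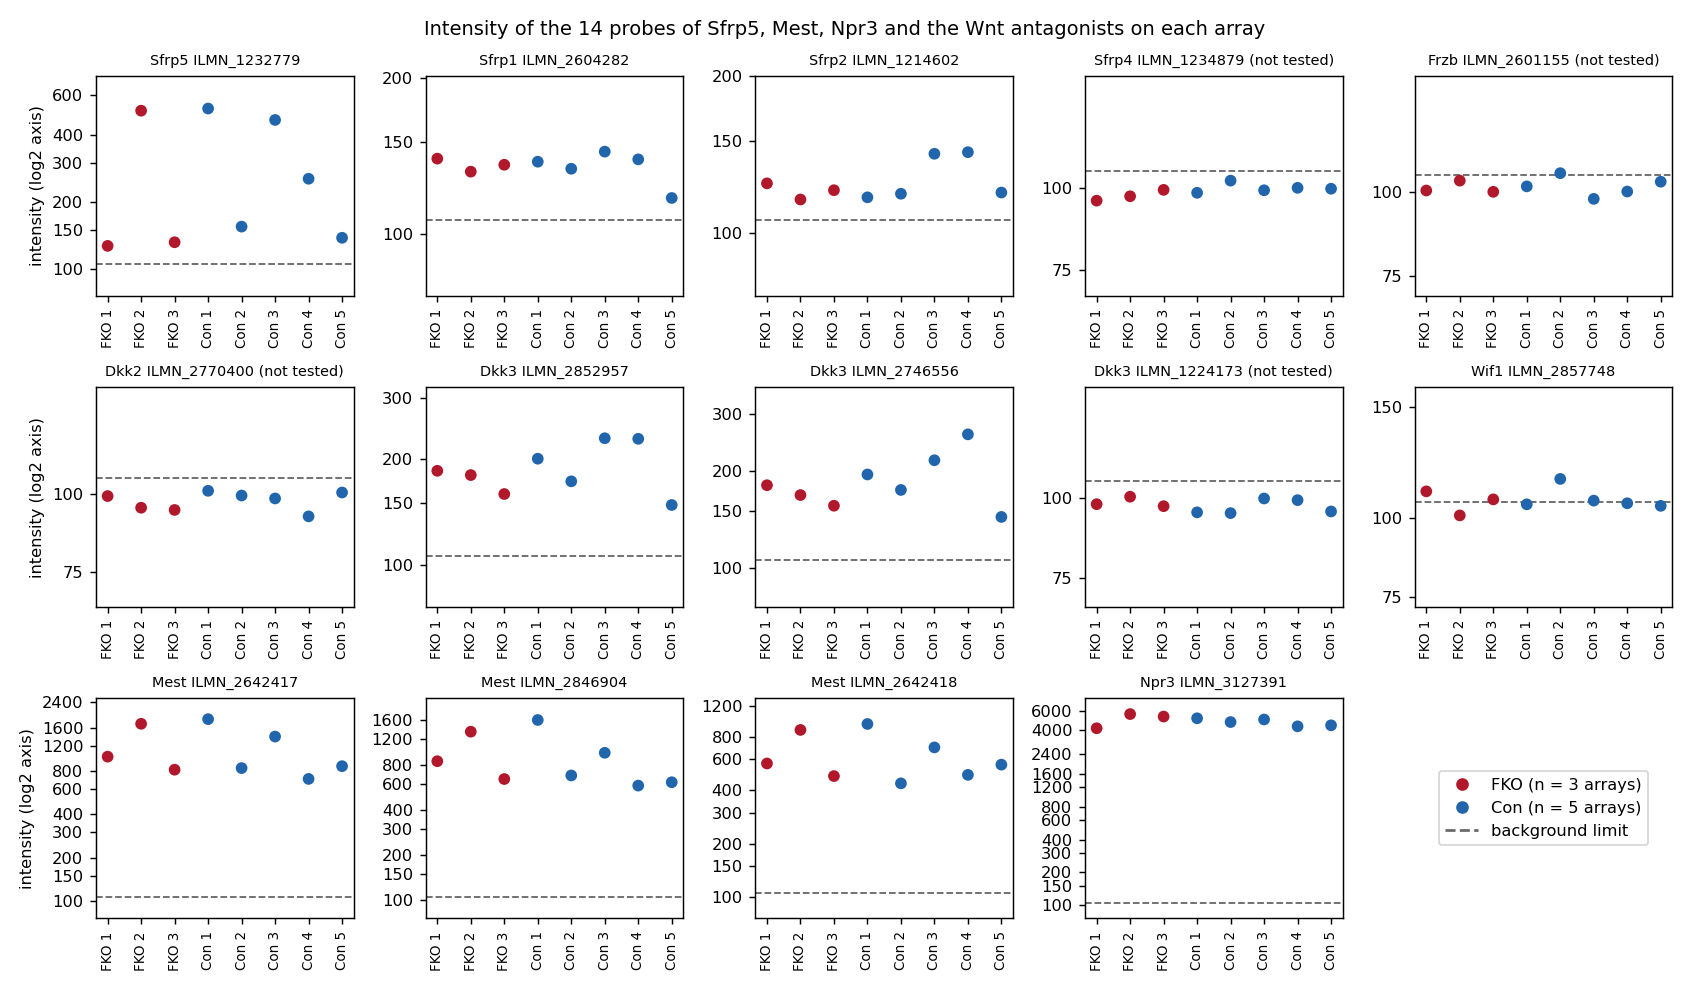
Intensity (log2 axis) of each of the 14 member probes on the 8 arrays, with the 3 FKO arrays in red and the 5 Con arrays in blue, 1 point per mouse, and the background limit of 106.1 as a dashed line. Sfrp5 and the 3 Mest probes are high on FKO 2, Con 1 and Con 3, and Sfrp4, Dkk2 and 1 Dkk3 probe lie below the limit on all 8 arrays.

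Sfrp5 had intensities of 127, 511 and 132 on FKO 1 to FKO 3 and of 523, 155, 465, 254 and 138 on Con 1 to Con 5 (ILMN_1232779). It was high on 1 of 3 FKO arrays and on 2 of 5 Con arrays, intermediate on Con 4, and low on the other 4, so that the groups overlapped over nearly their whole range. Among the low arrays, FKO 1, FKO 3 and Con 2 were the 3 highest for the summed epididymal genes. FKO 2, Con 1 and Con 3, high for Sfrp5, were the 3 lowest for Ogt. The part of either in the Sfrp5 values was not tested. The means were 257 ± 220 in FKO and 307 ± 177 in Con mice (SD, n = 3 and n = 5). The log2 fold change was −0.49 with an SE of 0.73 (95% interval −2.16 to 1.18; exact permutation test, two-sided, p = 0.518, where the smallest p that 3 against 5 arrays allow is 0.0179). As a fold this interval ran from 0.224 to 2.27, and so holds both a large decrease and a doubling. Of all tested probes, 120 (0.865%) had a wider ratio of the highest to the lowest array than the 4.11 of Sfrp5, which became 5.55 after background correction. The step from Con 3 down to Con 4, the next array in order, was 1.83-fold. At least a 3-fold span between arrays was found for 1 member probe, that of Sfrp5, and for 1.67% of all tested probes. The log2 fold change was −1.29 without FKO 2, −0.07 without FKO 1 and −0.11 without FKO 3, and it turned to 0.88 (SE 0.88) without FKO 1, FKO 3 and Con 2. Sfrp5 was called in none of these, whereas without FKO 2 1.38% of all tested probes were called higher and 0.0144% lower. Sfrp5 was among the genes that the study picked from these same arrays, so its spread here is no independent evidence.

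The other secreted frizzled-related proteins were near background and narrow in range. Sfrp1, which binds Wnt proteins and is made by adipocytes and their precursors, was at 140, 132 and 136 on FKO 1 to FKO 3 and at 138, 133, 144, 139 and 117 on Con 1 to Con 5 (log2 fold change 0.03, SE 0.10, exact permutation p = 0.875). Only Con 5 stood below the rest. Sfrp2, a secreted product of fibroblasts, was at 125, 116 and 121 on FKO 1 to FKO 3 and at 117, 119, 142, 143 and 120 on Con 1 to Con 5 (log2 fold change −0.12, SE 0.12, exact permutation p = 0.393). Here Con 3 and Con 4 were above the other 6 arrays, which lay within 116 and 125. From lowest to highest array both genes spanned 1.23-fold, and 55.7% and 55.0% of the tested probes had a wider ratio than Sfrp1 and Sfrp2. At this distance from background, folds are compressed. Sfrp4 lay between 95.7 and 99.4 on the FKO arrays and between 98.4 and 103 on the Con arrays, above the limit of 106.1 on none. Frzb lay between 100.2 and 104 on the FKO arrays and between 97.8 and 107 on the Con arrays, above the limit on Con 2 alone. Neither gene was tested, and a level below what the array can read remains possible for both.

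Of the Dickkopf proteins, Dkk3 stood above background and Dkk2 did not. Dkk3 was at 186, 181 and 159 on FKO 1 to FKO 3 and at 201, 173, 230, 229 and 148 on Con 1 to Con 5 with ILMN_2852957 (log2 fold change −0.18, SE 0.19, exact permutation p = 0.393). With ILMN_2746556 it was at 180, 168 and 156 on the FKO arrays and at 195, 174, 215, 259 and 144 on the Con arrays (log2 fold change −0.26, SE 0.22, exact permutation p = 0.339). Con 1, Con 3 and Con 4 were the 3 highest arrays and Con 5 the lowest with both probes, and the 3 FKO arrays lay inside the range of the Con arrays. Dkk3 thus took another order of arrays than Sfrp5: FKO 2, next to Con 1 at the top for Sfrp5, had at least 4 arrays above it for Dkk3. The third Dkk3 probe, ILMN_1224173, stayed between 94.7 and 100.4 on all 8 arrays, and Dkk2 between 92.0 and 101, none of them above the limit. Wif1, which binds Wnt proteins directly, was at 110.3, 101 and 107.1 on FKO 1 to FKO 3 and at 105.2, 115.4, 106.6, 105.6 and 104.6 on Con 1 to Con 5 (log2 fold change −0.03, SE 0.08, exact permutation p = 0.696). It was above the limit on 4 arrays only. Its 3 highest arrays, Con 2, FKO 1 and FKO 3, were also the 3 highest for the summed epididymal genes, and the part of that RNA in this order was not tested.

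Mest was read by 3 probes with the same pattern. With the brightest, ILMN_2642417, it was at 1007, 1703 and 817 on FKO 1 to FKO 3 and at 1834, 839, 1388, 705 and 865 on Con 1 to Con 5. FKO 2, Con 1 and Con 3 were above all others, FKO 1 came next, and the groups overlapped fully. The same 3 high arrays were the 3 lowest for Ogt, and the part of this in the Mest values was not tested. The means were 1176 ± 466 in FKO and 1126 ± 474 in Con mice (SD, n = 3 and n = 5), and the log2 fold change was 0.09 with an SE of 0.37 (95% interval −0.75 to 0.93, exact permutation p = 0.804). ILMN_2846904 was at 850, 1338 and 647 on the FKO arrays and at 1602, 683, 968, 584 and 615 on the Con arrays (log2 fold change 0.14, SE 0.38). ILMN_2642418 was at 568, 879 and 482 on the FKO arrays and at 949, 439, 700, 490 and 560 on the Con arrays (log2 fold change 0.05, SE 0.30). All 3 probes put Con 1 highest, then FKO 2, Con 3 and FKO 1. From lowest to highest array the 3 probes spanned 2.60-fold, 2.74-fold and 2.16-fold, and 2.54%, 2.13% and 4.55% of all tested probes had a wider ratio.

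Npr3 lay far above background on every array and differed little between them. It was at 4167, 5617 and 5330 on FKO 1 to FKO 3 and at 5141, 4747, 5012, 4338 and 4435 on Con 1 to Con 5 (means 5038 ± 768 in FKO and 4735 ± 350 in Con mice, SD). The highest and the lowest of the 8 arrays were both FKO arrays, FKO 2 and FKO 1. The log2 fold change was 0.08 with an SE of 0.11 (95% interval −0.17 to 0.34, exact permutation p = 0.5), an interval in folds of 0.887 to 1.26. From lowest to highest array Npr3 spanned 1.35-fold, against a median of 1.26 over all tested probes.

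**Figure D2:**
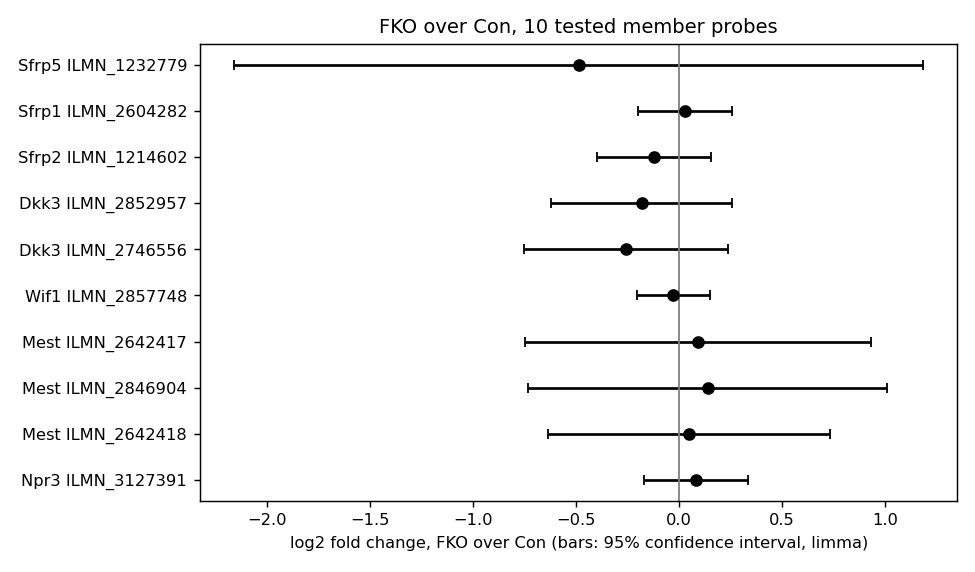
Log2 fold change (x axis, FKO over Con) of the 10 tested member probes with 95% confidence intervals from limma, 3 FKO against 5 Con arrays. All intervals include 0, and that of Sfrp5, −2.16 to 1.18, is the widest.

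The order of arrays divided the members. FKO 2, Con 1 and Con 3 were the 3 highest arrays for 4 of the 10 tested member probes, those of Sfrp5 and Mest, against 14.2% of all tested probes, and the 3 lowest for none, against 11.1%. The 3 Mest probes read 1 gene and are not separate cases. Sfrp5 and Mest shared the high arrays and parted on Con 4, where Sfrp5 came next after the 3 high arrays and the brightest Mest probe was lowest. Relative to each gene's own mean over the 8 arrays, Sfrp5 deviated by 1.30 on the log2 scale on FKO 2 and by 1.33 and 1.15 on Con 1 and Con 3, and Mest by 0.68, 0.79 and 0.38. On Con 4 the deviations were 0.15 for Sfrp5 and −0.64 for Mest.

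The genes closest in pattern were found by the root mean square difference between log2 profiles over the 8 arrays, each centred on its own mean, among the brightest tested probes of 9651 other genes. For Sfrp5 they were Aard (0.311), Tceal5 (0.331), the GTPase gene Diras2 (0.343), Ass1 (0.368), the arginine-making enzyme argininosuccinate synthase, and the kinase gene Dclk3 (0.407), where the median over all genes was 1.04. Aard was at 140, 346 and 126 on FKO 1 to FKO 3 and at 336, 137, 346, 178 and 137 on Con 1 to Con 5. Tceal5 was at 128, 732 and 120 on the FKO arrays and at 548, 158, 321, 200 and 121 on the Con arrays. Like Sfrp5, both were high on FKO 2, Con 1 and Con 3 and low on FKO 1, FKO 3, Con 2 and Con 5. Aard and Diras2 were also among the genes that the study picked from these arrays. For Mest the closest were Kcne1l (0.140), a potassium channel subunit, Uaca (0.151), the Fc receptor gene Fcgr4 (0.166), the actin-bundling protein gene Fscn1 (0.167) and Syngr1 (0.171), where the median over all genes was 0.519. Kcne1l was at 333, 617 and 293 on FKO 1 to FKO 3 and at 725, 274, 419, 256 and 279 on Con 1 to Con 5. Its order on the 3 highest arrays, Con 1, FKO 2 and Con 3, was that of Mest. Mest was 95th closest to Sfrp5 (0.702), and Sfrp5 only 8712th closest to Mest, since its deviations are larger than those of most genes. None of the 10 neighbours was called between FKO and Con (limma, adjusted p = 1 for each). No gene was sought for Npr3, whose arrays span less than 2-fold.

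**Figure D3:**
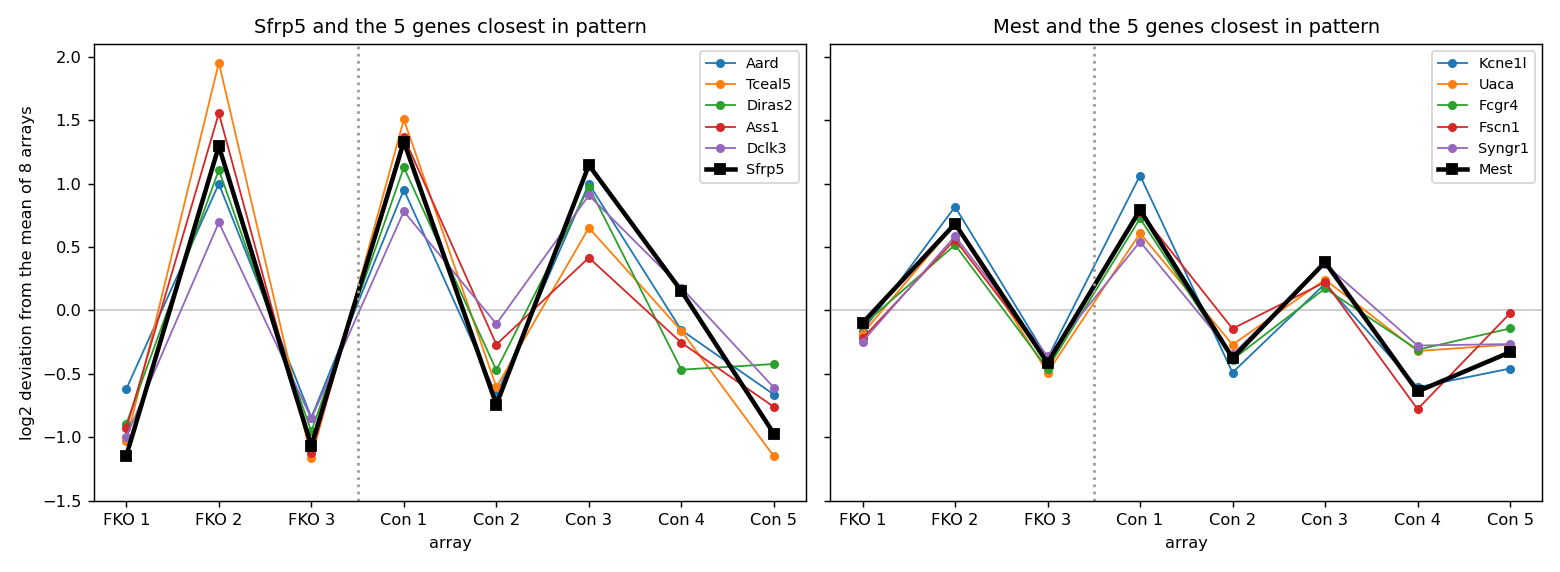
Log2 deviation from the gene's mean of 8 arrays (y axis) on each array (x axis, FKO left of the dotted line, Con right of it) for Sfrp5 and Mest in black and their 5 closest genes in colour. The lines peak on FKO 2, Con 1 and Con 3. Syngr1, among the genes closest to Mest, was above background on these arrays alone. Sfrp5 deviates between −1.14 and 1.33, and Mest between −0.64 and 0.79.

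The Wnt pathway around these antagonists showed neither a called gene nor the wide spread of Sfrp5. In 6 lists of other antagonists, ligands, secretion factors, receptors, intracellular parts and target genes, 94 of 102 genes were on the array and 56 were tested. Of the 56, 20 were above 0 on the log2 scale of FKO over Con and 36 below (64.3% negative, against 56.6% of all tested probes), with values from −0.36 to 0.23 and a median of −0.04, against −0.02 over all tested probes. None was called, and 2 (3.57%) had an unadjusted p under 0.05, against 4.27% of all tested probes. The lowest value and the smaller of these 2 p-values belong to Notum, which was above background on no FKO array. FKO 2, Con 1 and Con 3 were the 3 highest arrays for 4 of the 56 genes (7.14%, against 14.2%) and the 3 lowest for 4 others (7.14%, against 11.1%). The highest array was at least 2 times the lowest for 2 genes, Ccn2 and Ccnd1 (3.57%, against 5.79% of all tested probes). Many of the 56 lay near background on all arrays, such as Fzd8 (103.7 to 109) and Lrp6 (106.1 to 114). Folds and spans are compressed there, so a narrow span is not evidence of a steady level.

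Of the other antagonists, 8 of 16 on the array were tested, all 8 with a log2 fold change below 0 (as for 56.6% of all tested probes) and a median of −0.10, and none was called. Among those not above background were Dkk1, Dkk4 and sclerostin (Sost). Notum, a secreted enzyme that strips Wnt proteins of the lipid they need for binding, was at 103, 103 and 102 on FKO 1 to FKO 3 and at 118, 122, 132, 130 and 104 on Con 1 to Con 5. It was above background on 4 of 5 Con arrays and on no FKO array, so that it was tested only through the Con arrays and no fold or p is read from it. Its sign, counted among the 8 above, rests on the Con arrays alone. Con 5 lay beside the FKO arrays. Igfbp4, an IGF-binding protein that also binds Frizzled and LRP6, was at 3958, 5750 and 3870 on the FKO arrays and at 6058, 4735, 6186, 6525 and 4466 on the Con arrays (log2 fold change −0.32, SE 0.18). FKO 2 was here among the Con arrays and FKO 1 and FKO 3 were lowest. Dact2 (−0.14), an intracellular partner of Dishevelled, was next by p.

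Of 19 Wnt ligands on the array, 6 were tested, 3 above and 3 below 0 in log2 fold change, and 13 were not above background, among them Wnt10b, a ligand known to hold back adipogenesis. Wnt5a, which signals mostly without beta-catenin and is bound by Sfrp5, was at 335, 361 and 393 on FKO 1 to FKO 3 and at 355, 343, 320, 314 and 318 on Con 1 to Con 5. The FKO arrays held the 2 highest values and the groups overlapped through FKO 1 (log2 fold change 0.15, SE 0.08, unadjusted p = 0.093, limma). Wnt5b (−0.09) and Wnt4 (0.05) followed. Among the genes for Wnt secretion and the R-spondins, which raise the response to Wnt, 4 of 6 were tested, 3 of them below 0 and 1 above. Rspo1 was at −0.13 on the log2 scale, the acyltransferase gene Porcn at −0.12, the carrier gene Wls at 0.03 and Rspo3 at −0.04.

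Of the Frizzled receptors and co-receptors, 13 of 16 on the array were tested, with 6 positive, 7 negative and a median of −0.0020. Fzd7, a receptor for canonical and other Wnt signals, was at 249, 214 and 236 on FKO 1 to FKO 3 and at 203, 221, 205, 203 and 204 on Con 1 to Con 5 (log2 fold change 0.21, SE 0.08, unadjusted p = 0.027 and adjusted p = 1, limma). Only Con 2, at 221, was above FKO 2. The co-receptor-like kinase gene Ror2 (−0.09) and Fzd10 (0.07) came next by p. Inside the cell, 15 of 22 genes of the beta-catenin pathway were tested, with 5 positive and 10 negative and a median of −0.04. Beta-catenin itself (Ctnnb1) was at 1801, 1720 and 1756 on the FKO arrays and at 1839, 1682, 2126, 2116 and 1663 on the Con arrays (−0.09, SE 0.10). Pygo1 (−0.10), a co-activator of beta-catenin, Gsk3b (0.13), the kinase that marks beta-catenin for degradation, and Tcf7l1 (−0.17), a repressor of Wnt targets, had the smallest p.

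Target genes of the pathway were split evenly, with 5 of the 10 tested positive and 5 negative. Axin2, a widely used readout of beta-catenin signalling, was at 364, 238 and 320 on FKO 1 to FKO 3 and at 222, 286, 259, 288 and 265 on Con 1 to Con 5 (log2 fold change 0.23, SE 0.17). It was lowest on Con 1, FKO 2 and Con 3, the arrays where Sfrp5 and Mest were highest, and highest on FKO 1 and FKO 3. Such an order, these 3 arrays lowest, was found in 11.1% of all tested probes. Ccn4 (0.14) and Sp5 (−0.24), both known targets, had smaller p than Axin2 and were not called.

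**Figure D4:**
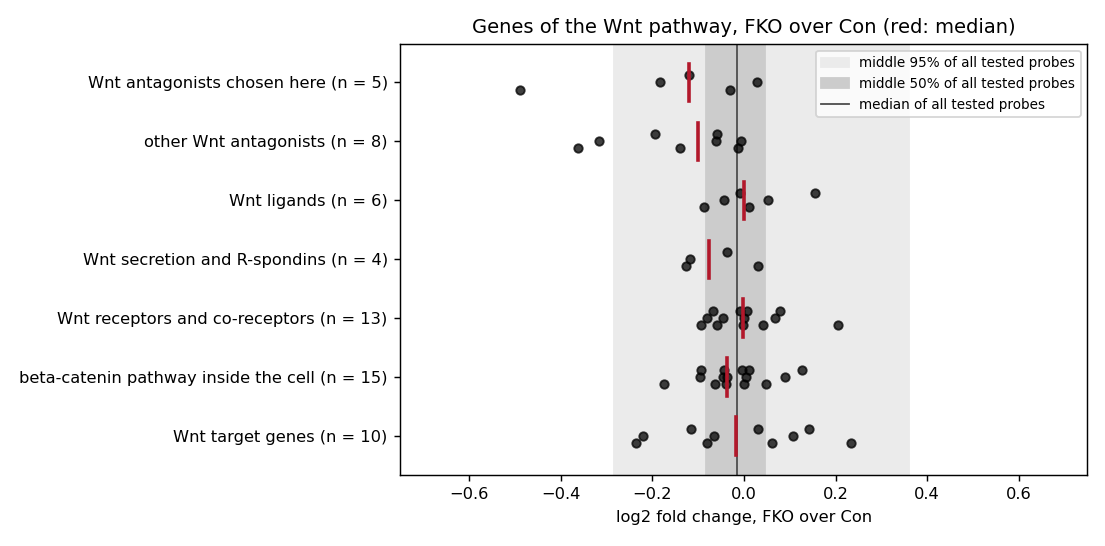
Log2 fold change (x axis, FKO over Con) of the tested genes of each Wnt list, 1 point per gene by its brightest probe, with the list's median as a red bar and the middle 50% and 95% of all 13877 tested probes as grey bands. Sfrp5 at −0.49 and Igfbp4 at −0.32 lie left of the wider band, and no point lies right of it. The Notum point, also left of the band, is not read, because no FKO array was above background for it.

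Several genes known to move with fat expansion varied widely between arrays. All 12 of this list, which holds Sfrp5, Mest and Npr3, were tested, with 2 positive and 10 negative and a median of −0.14, and none was called. The highest array was at least 2 times the lowest for 6 of the 12, against 5.79% of all tested probes. Of all tested probes, 51.6% lie under 2 times the background limit on every array, where spans are compressed, so the comparison is not at like levels. FKO 2, Con 1 and Con 3 were the 3 highest for 5 of the 12 (Sfrp5, Mest, Bmp3, Fgf13 and Ndrg1), against 14.2% of all tested probes. Sfrp5 and Mest are in both counts and were already described for this spread and order, so they are not further cases. Bmp3, a secreted factor of the TGF-beta family, was at 250, 744 and 234 on FKO 1 to FKO 3 and at 597, 361, 527, 500 and 300 on Con 1 to Con 5 (log2 fold change −0.39, SE 0.44), and was 10th closest to Sfrp5 in pattern (0.485). Fgf13, an intracellular FGF-like protein, was at 209, 760 and 327 on the FKO arrays and at 722, 382, 505, 496 and 429 on the Con arrays (−0.47, SE 0.43). For both genes Con 4 was close to Con 3, as it was not for Mest. Slc7a10, an amino acid transporter of adipocytes, ran the other way, at 758, 354 and 568 on the FKO arrays and at 344, 896, 427, 1210 and 790 on the Con arrays (−0.32, SE 0.47), with FKO 2, Con 1 and Con 3 lowest. Aqp7, the glycerol channel, had the smallest p of the list (−0.25, SE 0.12), followed by leptin (Lep, −0.12), whose intensities reach the upper end of the arrays, and Cav1 (−0.10). Slc7a10, Bmp3, Fgf13, Rspo3, Ctnnb1, Nnat, Npr1 and the genes named for their 3 highest or lowest arrays were chosen after their values were seen.

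Around Npr3, 5 of 10 genes of the natriuretic peptide system were tested. The peptide genes Nppa, Nppb and Nppc and the downstream kinase gene Prkg1 were not above background. Corin, the protease that activates atrial natriuretic peptide, was at 111, 112 and 111 on FKO 1 to FKO 3 and at 142, 148, 149, 152 and 106 on Con 1 to Con 5 (log2 fold change −0.45, SE 0.17, unadjusted p = 0.029 and adjusted p = 1, limma). Con 5 again lay with the FKO arrays, as for Notum. Npr2, the receptor for C-type natriuretic peptide, was at 238, 204 and 198 on the FKO arrays and at 238, 244, 238, 260 and 229 on the Con arrays (−0.22, SE 0.09, unadjusted p = 0.035 and adjusted p = 1). FKO 2 and FKO 3 were the 2 lowest arrays, and FKO 1 was level with Con 1 and Con 3. Npr1, the signalling receptor for atrial natriuretic peptide, was near the limit on all arrays, and Npr3 kept its narrow range.

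Of the network of imprinted genes to which Mest belongs, 12 of 22 on the array were tested, with 5 positive, 7 negative and a median of −0.03. FKO 2, Con 1 and Con 3 were the 3 highest arrays for 4 of the 12, Mest, Igf2, Ndn and Igf2r, against 14.2% of all tested probes. Mest is counted here again. Ndn, a regulator of growth in precursor cells, was at 1482, 2256 and 1388 on FKO 1 to FKO 3 and at 2465, 2202, 2273, 2064 and 1530 on Con 1 to Con 5 (log2 fold change −0.33, SE 0.20). Con 2 and Con 4 lay close below the 3 highest. Nnat, an imprinted gene of adipocytes and neurons, varied by 5.12-fold and in another order, at 913, 742 and 191 on the FKO arrays and at 642, 345, 798, 978 and 306 on the Con arrays (−0.18, SE 0.64). Con 4 and FKO 1 were its highest arrays, whereas the brightest Mest probe was lowest on Con 4. Grb10 (−0.13) and Igf2r (0.19) had the next smallest p after Ndn.

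Several markers of endothelial cells were highest on the arrays on which Sfrp5 and Mest were high. The summed intensity of 13 endothelial markers was 6408, 8294 and 4471 on FKO 1 to FKO 3 and 7456, 5701, 7603, 5289 and 6250 on Con 1 to Con 5. FKO 2, Con 1 and Con 3 were the 3 highest arrays for 9 of the 13 (Pecam1, Cdh5, Flt1, Tek, Tie1, Esam, Egfl7, Robo4 and Eng), against 14.2% of all tested probes, and none of the 13 was below the level of testing. Of 16 progenitor and fibroblast markers, 5 had this order, and their sum ran from 13079 to 18295 on the FKO arrays and from 15116 to 18959 on the Con arrays. Dcn alone made up much of this sum (9982 of 17603 on FKO 1). The median log2 deviation of these 16 markers was also highest on Con 1 (0.23), FKO 2 (0.18) and Con 3 (0.10), with Con 4 next (0.07). The summed adipocyte markers lay between 40474 and 48039 on the FKO arrays and between 45450.3 and 52219 on the Con arrays. The largest term of this sum, Lpl, read the same 17443 on FKO 2, FKO 3, Con 3, Con 4 and Con 5, near the upper end of the arrays. The sum is thus a poor measure of adipocyte content. None of the 10 adipocyte markers was highest on FKO 2, Con 1 and Con 3. Of the 10, 3 were lowest there (Plin1, Cidec and Lipe), against 11.1% of all tested probes, and the others, Adipoq and Pparg among them, were not. Summed mesothelial markers (12 genes) ran from 2720 to 3666 on the FKO arrays and from 2754 to 4077 on the Con arrays, and summed macrophage markers (8 genes) from 3686 to 5042 and from 4094 to 5745. In whole tissue, fewer cells of a type and less RNA per cell cannot be told apart. The part of these cell types in the spread of Sfrp5 and Mest was not tested.

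**Figure D5:**
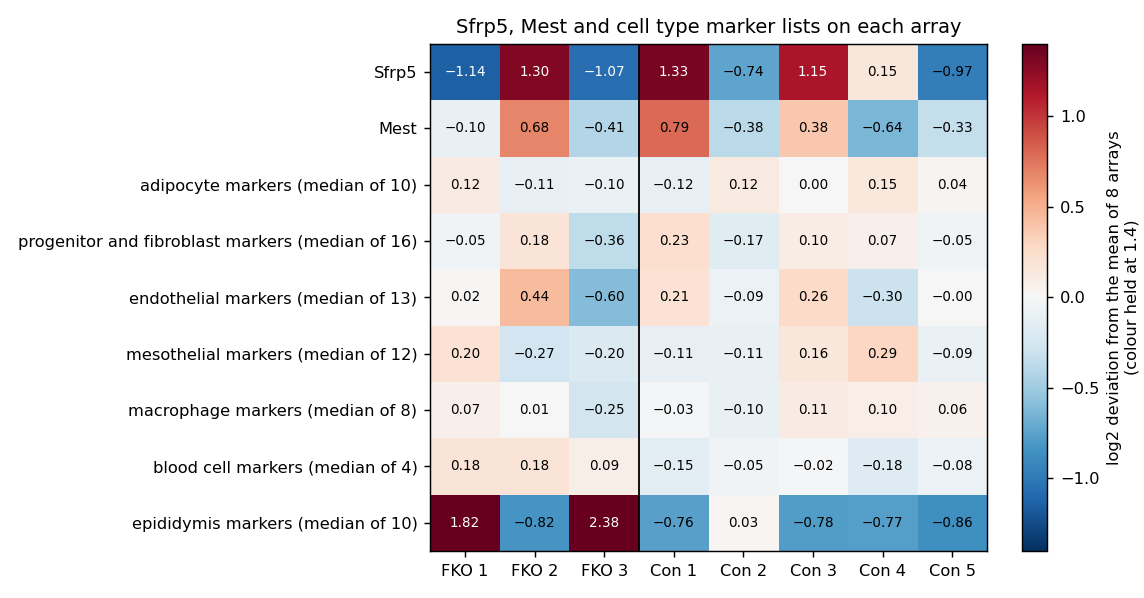
Log2 deviation from the mean of 8 arrays (colour, with the value in each cell) for Sfrp5, Mest and the median of each cell type marker list (rows) on each array (columns, FKO left of the line, Con right of it). The endothelial row is highest on FKO 2 (0.44), Con 3 (0.26) and Con 1 (0.21), and the epididymal row on FKO 3 (2.38) and FKO 1 (1.82). The progenitor and fibroblast row is also highest on Con 1 (0.23), FKO 2 (0.18) and Con 3 (0.10).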

How the data were processed

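RNA was extracted with Trizol, labelled with biotin and hybridised to Illumina MouseRef-8 v2.0 beadchips. The authors deposited linear intensity values that they had quantile-normalized; the software and any background step are not given in the sources used here. A table of non-normalized values was not used, because its 16 columns match no sample label. Probes were named through the platform annotation (23978 with 1 symbol, 0 with several, 1719 with none; 23962 matched by Entrez ID). In limma 3.58.1 (R 4.3.3), normexp (offset 50) was applied first, then quantile normalization and log2. The background limit, 106.1, lies as far above the mode of all values (98.5) as the lowest 1% of the values under that mode lie below it. Probes above it on at least 3 arrays were fitted by group with lmFit and eBayes, two-sided, and Benjamini-Hochberg adjusted over all 13877 probes, with a threshold of 0.05. For lists, each gene was taken by its brightest probe. Exact permutation tests ran over all 56 splits of the arrays. The methods' t-test was taken at p under 0.01 with a fold above 1.5.

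The members and gene lists were chosen with earlier results of these data known. Named were all members, the 3 genes of each pathway list with the lowest p, and the 5 genes closest in pattern to Sfrp5 and Mest. Marker lists were described by their sums, and further genes were chosen after their values were seen. The code was tested on simulated data. Each array is a single mouse, so the p-values rest on the spread among 8 mice, whose number limits the precision. The standard errors, intervals and p-values of limma also draw, through eBayes, on the variance of all tested probes. Alternatives were no background correction, an offset of 16, median centring, level filters, array weights, the replicate number as a block, and leaving out arrays.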

Additional observations from a re-analysis of the deposited data

Results flagged for a closer look

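Among the 10 tested member probes, Wif1 had 1 Con array far from the other 4: it was at 115 on Con 2, against 104.6 to 106.6 on the other Con arrays, and the gap was 0.804 of the range, above the critical value of 0.71. Chance flags about 1 in 20 such groups. Con 2 was also the Con array with the highest summed epididymal genes (3348, against 1086 to 1265 on the other Con arrays), and the part of that RNA in the Wif1 value was not tested.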

How the results depend on the processing

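No member probe was called in any setting run. The total over all probes was 0 in most, 1 without FKO 2, Con 1 and Con 3, 1 by the methods' t-test on log2 values, and between 0 and 193 when each array was left out (193 without FKO 2, 191 of them higher; 15, all lower, without Con 5). The log2 fold change of Sfrp5 (−0.49) was −1.14 with array weights, −0.67 with an offset of 16 and −0.38 with no background correction, and ran from −1.29 without FKO 2 to −0.07 without FKO 1. It was −0.59 (standard error 0.33) without FKO 2, Con 1 and Con 3, and turned to 0.88 (standard error 0.88) without FKO 1, FKO 3 and Con 2, where 1 FKO array was left and was assumed to vary like the Con arrays. Leaving out each array moved Mest between −0.22 and 0.33, Npr3 between −0.0037 and 0.21, Sfrp1 between −0.042 and 0.066, Sfrp2 between −0.17 and −0.06, Dkk3 between −0.31 and −0.10 and Wif1 between −0.075 and 0.028. Array weights turned Mest to −0.16, Npr3 to −0.059 and Wif1 to 0.017. Sfrp1 turned to −0.034 without FKO 1, FKO 3 and Con 2, and Wif1 to 0.0062 without FKO 2, Con 1 and Con 3. The causes were not tested. With the stricter level filter, Dkk3, Sfrp1, Sfrp2 and Wif1 had no value. With the replicate number as a block, 0 probes were called (210 at an unadjusted p under 0.05), Sfrp5 was at −0.88, Mest turned to −0.21 and Sfrp1 to −0.039. Deviations of same-numbered arrays correlated at −0.56, −0.70 and −0.41. Each such pair holds 1 of FKO 2, Con 1 and Con 3, the arrays that stood apart from the rest in many genes. These values therefore cannot decide whether the numbers pair the arrays. With 3 against 5 arrays, true differences within the intervals given remain possible. Of the tested probes, 51.6%, those of Sfrp1, Sfrp2 and Wif1 among them, lie under 2 times the background limit on all arrays, where folds are compressed.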
